A study of Mus musculus with 15 samples.

Results

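Small RNA libraries labelled as miR-302 knockout (KO) were compared between 2 stages of mouse neural crest, with 6 libraries of the 15 in the series. The E9.5 group held 2 libraries of E9.5 cells sorted as Sox10+ neural crest, which the labels describe as post migratory. The E8.5 group held 4 libraries of E8.5 cells sorted as Wnt1-Cre+ neural crest, described as pre and post migratory. All were C57BL/6 with the KO genotype. Cells went from the sorter into Trizol-LS, RNA was isolated with the miRNeasy Mini kit, and the NEXTflex Small RNA-Seq v3 kit with size selection on a gel was used to build libraries. Wnt1-Cre is a lineage driver of the dorsal neural tube and the crest that leaves it, so its progeny keep the mark, whereas Sox10 is a transcription factor of migrating crest and early glia. Stage, sort marker and the number in the library's label code change together, since no code holds both stages, and their effects cannot be told apart. The hairpin table holds no mRNA, so the sort markers themselves were not checked. No label ties the libraries of a group to separate litters. The p-values therefore cover only the spread among libraries of a group, pooled over all 15 libraries of the series, WT and other stages included. That spread may be technical.

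MicroRNAs are cut from hairpin precursors, and bases 2 to 8 of the mature strand, the seed, pair with target mRNAs. The miR-302 and miR-290-295 clusters are hallmarks of pluripotent and early embryonic cells, and main members of both share 1 seed. The let-7 family is held back in such cells by the RNA-binding protein Lin28, and it accumulates as tissues differentiate. Neural crest cells start as part of the neural epithelium, leave it and migrate, then form peripheral neurons, glia, pigment cells and facial mesenchyme.

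The sequences below belong to the families whose hairpins carried the stage difference, and capitals mark the seed. They are RefSeq entries on GRCm38.p6, the build of mm10, and 232 of the 248 hairpins tested, 72 of the 76 called, matched that table. The deposited values do not separate the arms of a hairpin, so the arm shown is the one usually taken as the main product. The first 3 are let-7 members of 3 loci, and 10 tested hairpins matched an entry with this seed.
let-7b-5p: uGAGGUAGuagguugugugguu
let-7c-5p: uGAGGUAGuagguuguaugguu
let-7g-5p: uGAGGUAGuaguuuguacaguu
The next set shows the seed that the miR-302 hairpins share with miR-294 and miR-295. miR-293-3p, from the same cluster as those, has another seed.
miR-302b-3p: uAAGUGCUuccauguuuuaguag
miR-302d-3p: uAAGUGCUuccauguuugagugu
miR-294-3p: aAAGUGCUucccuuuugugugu
miR-295-3p: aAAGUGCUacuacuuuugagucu
miR-293-3p: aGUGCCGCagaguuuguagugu
A proliferation-linked relative, miR-106b-5p, carries the same core letters 1 base further in, and 6 tested hairpins had its seed.
miR-106b-5p: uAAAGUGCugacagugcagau
The last set holds other members described below, the first 4 from hairpins that were higher and the last 3 from hairpins that were lower at E9.5.
miR-125a-5p: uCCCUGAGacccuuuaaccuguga
miR-125b-5p: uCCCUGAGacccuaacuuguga
miR-194-5p: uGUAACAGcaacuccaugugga
miR-214-3p: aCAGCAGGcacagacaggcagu
miR-379-5p: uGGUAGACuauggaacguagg
miR-411-5p: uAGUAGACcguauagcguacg
miR-200a-3p: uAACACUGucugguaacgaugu

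The E9.5 libraries held 39667 and 24184 hairpin reads, against 25611, 46082, 1706 and 9757 in E8.5 replicates 1 to 4. A deposited value is a read count divided by a size factor of its library (a normalized count), and 1 read was worth 1.47 and 2.90 normalized counts at E9.5, against 1.58, 0.715, 19.3 and 3.73 at E8.5. In E8.5 replicate 3, the shallow library, a hairpin without a read may therefore stand at up to 58.0 normalized counts, the worth of 3 reads, and calls are given with and without it. E8.5 replicates 2 and 3 share label code 128, while replicates 1 and 4 have codes 157 and 169, and both E9.5 libraries have code 171. Of the 1226 hairpins in the table, the 248 with at least 10 normalized counts in at least 2 of these 6 libraries were tested, and they held 98.1% to 99.0% of each library's reads.

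The targeted hairpins were not equally low at the 2 stages. The deleted cluster lies on chromosome 3, where mir-302b spans chr3:127545228-127545301 and mir-302d chr3:127545624-127545689 of GRCm38, within an intron of Larp7 on the opposite strand. The sum over miR-302a, b, c and d was 148 and 75.4 normalized counts (127 reads) at E9.5, against 11.0, 2.14, 19.3 and 0 (11 reads) at E8.5. Both E9.5 libraries lie above all E8.5 libraries. The WT libraries of the same sorts held 338 and 466.3 at E9.5, and 6011, 3875 and 6522 at E8.5, so the E9.5 libraries labelled KO keep a partial level of miR-302a to d and the E8.5 ones almost none. mir-367 of the same cluster went the other way and is given below. Each direction given here carries that limit, and the groups are called the E9.5 libraries and the E8.5 libraries.

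In limma's moderated test on log2(normalized count + 1), 76 of 248 hairpins (30.6%) passed an adjusted p of 0.05. Of these, 52 were higher (21.0%) and 24 lower (9.68%) in the E9.5 libraries. Copies of 1 mature sequence, such as the pair let-7a-1 and let-7a-2, can share reads, and joining such copies left 44 higher and 24 lower sets. The 2 groups did not overlap for 112 hairpins (45.2%), 77 of them higher and 35 lower, and 72 of the 76 called hairpins were among these. edgeR called 54 higher and 23 lower, of which 48 and 16 were shared, and DESeq2 58 and 28. Log2 fold changes are E9.5 over E8.5 with their standard error. The added 1 limits the change of hairpins near 0 in a whole group, while a 0 in 1 library can carry a change far past that of edgeR, which gave 3.57 for let-7a-1 at 5.68 in limma and -1.82 for mir-200b at -3.86. Only 12 tested hairpins had passed the minimum through the E9.5 libraries alone and 25 through the E8.5 libraries alone, and 10 of each were called. The minimum itself favours a difference in such hairpins, so their calls are weak support. Among those described below, mir-145a, mir-214, mir-302d and mir-5112 passed through E9.5 alone. Through E8.5 alone passed mir-107, mir-130a, mir-200a, mir-219a-1, mir-292a, mir-293, mir-294, mir-3081 and mir-758, and also mir-367, which was not called.

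The split between higher and lower rests on the scaling. The authors' factors gave a median log2 fold change of 0.64 over all 248 hairpins, with 149 above 0 and 99 below. TMM scaling gave 35 higher and 39 lower with a median shifted by -0.55, and scaling to the library sum gave 33 higher and 50 lower with a shift of -0.76. Of the hairpins, 33 were higher and 24 were lower under all 3 scalings. Changes are best read against that shift, and let-7 and the liver hairpins moved up by far more than it. Hairpins higher by under 2 log2 units, such as mir-21a, mir-30a and mir-182, were not called under the other 2 scalings. Some with larger changes were not called under them either, among them mir-125b-1 at 4.03, mir-199a-1 at 3.76 and mir-128-2 at 3.68.

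One E9.5 library decides many of the calls. Without E9.5 replicate 2, the lone remaining library is assumed to vary like the other groups, and 4 higher and 4 lower hairpins remained: mir-302d, mir-145a, mir-6236 and mir-6540, and mir-292a, mir-293, mir-294 and mir-130a. Without E9.5 replicate 1, 32 were higher and 27 lower. Without the shallow E8.5 replicate 3, 52 were higher and 36 lower, and 47 of the 52 higher and all 24 lower calls were kept. A fit of the 6 libraries alone, which takes no spread from the other groups, called 8 higher and 5 lower. With 2 libraries against 4, an exact permutation test of a single value cannot give a two-sided p under 0.133.

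**Figure D1:**
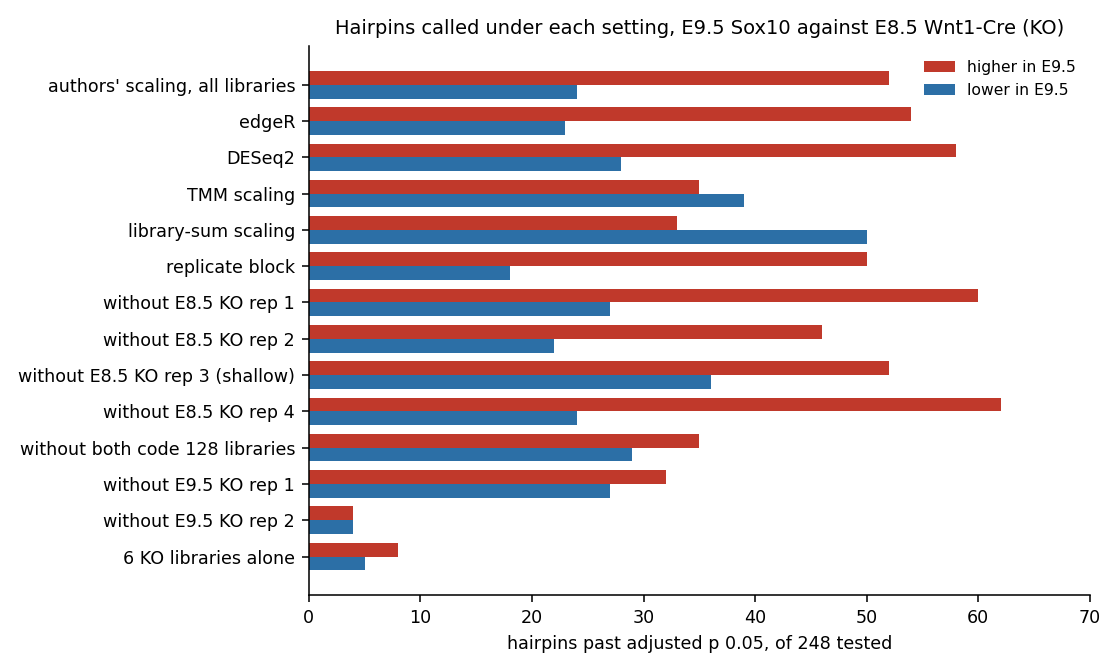
Number of hairpins past an adjusted p of 0.05 among the 248 tested (x axis) under each setting (y axis), red bars for hairpins higher and blue bars for hairpins lower in the E9.5 libraries. The authors' scaling gives 52 and 24, library-sum scaling turns the split to 33 and 50, and leaving out E9.5 replicate 2 leaves 4 and 4.

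The let-7 family stood out in size. All 11 tested let-7 hairpins of the 14 in the table were higher in the E9.5 libraries, with a median log2 fold change of 5.68 against 0.64 over all hairpins. edgeR gave smaller changes for the same hairpins, 2.75 to 4.08 with a median of 3.73. They summed to 8029 and 14010.5 normalized counts at E9.5, against 1647, 55.7, 38.7 and 1261 at E8.5, a 14.7-fold ratio of the group means. These are 13.8% and 19.97% of the E9.5 libraries, and 4.08%, 0.169%, 0.117% and 3.46% of the E8.5 libraries. The groups do not overlap, and within E8.5 the code 128 libraries, replicates 2 and 3, are far below the other two.

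Single members repeat that pattern. let-7b stood at 1133 and 1372 normalized counts at E9.5, against 158, 2.14, 0 and 108 at E8.5, a log2 fold change of 6.35 ± 1.61 (adjusted p = 0.0126). let-7c-1, in an intron of the long RNA gene Mir99ahg at chr16:77599657-77599750, stood at 1284 and 1648 at E9.5, against 207, 2.86, 0 and 157 at E8.5 (6.27 ± 1.68, adjusted p = 0.0149). let-7g, in an intron of Wdr82 at chr9:106178840-106178927, stood at 505 and 949 at E9.5, against 125, 6.43, 0 and 70.9 at E8.5 (5.43 ± 1.45, adjusted p = 0.0149). In each of the 3, both E9.5 libraries are above every E8.5 library. The smallest change of the family was that of let-7e, which sits with mir-99b and mir-125a at the Spaca6 locus on chromosome 17. It stood at 172 and 229 at E9.5, against 44.2, 11.4, 19.3 and 37.3 at E8.5 (2.95 ± 0.70, adjusted p = 0.00967).

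How far let-7 rose depends on which E8.5 libraries are taken. The median was 4.21 without the shallow replicate 3, with 11 still called. It was 2.87 without both code 128 libraries, with 10 called, and 8.74 with only those 2. With TMM scaling it was 5.04 with 11 called, and with library-sum scaling 4.99 with 10 called. Without E9.5 replicate 2 limma called 0 of them, with adjusted p between 0.125 and 0.211, and with the 6 libraries alone it also called 0. Without E9.5 replicate 1 it called 6, and without the filter on low values 1, let-7e. Each of the 11 stayed above 0 under every alternative, and edgeR on the recovered reads called 11.

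**Figure D2:**
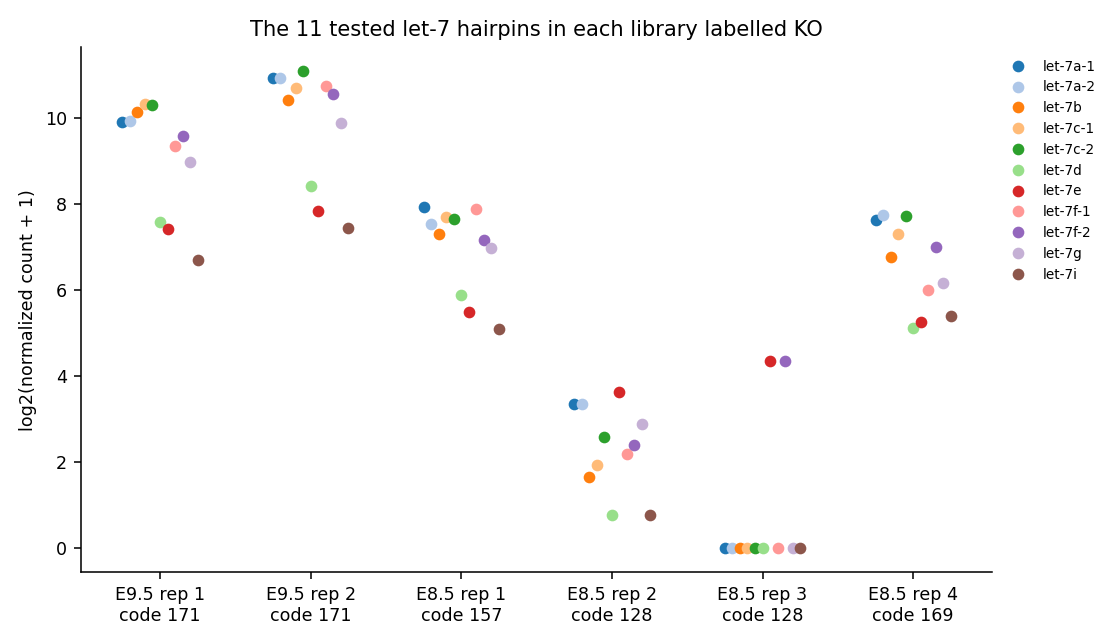
Level of each of the 11 tested let-7 hairpins, as log2(normalized count + 1), in the 2 E9.5 and the 4 E8.5 libraries, with the label code of each library under it. The E9.5 points lie above the E8.5 points of the same hairpin, and the code 128 libraries are the lowest, where all but let-7e and let-7f-2 are at 0 in replicate 3.

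The miR-99, miR-100 and miR-125 families, encoded beside let-7 copies and conserved with them, were higher with 4 of 6 members and a median of 2.50. Over all tested hairpins 21.0% were higher. mir-125a stood at 323 and 592 normalized counts at E9.5, against 89.9, 77.9, 58.0 and 89.5 at E8.5, a log2 fold change of 2.48 ± 0.57 (adjusted p = 0.00967). The E8.5 libraries lie close together here, the code 128 libraries included. mir-125b-2 followed at 189 and 487 at E9.5, against 109, 27.2, 38.7 and 63.4 at E8.5 (2.52 ± 0.59, adjusted p = 0.00967). mir-99b, at 402 and 391.6 against 123, 195, 135 and 228 at E8.5, had a smaller change of 1.26 ± 0.38 (adjusted p = 0.024) that was not called with TMM or library-sum scaling. mir-99a, in the same Mir99ahg host as let-7c-1, missed the threshold at 252 and 383 at E9.5, against 80.4, 35.02, 0 and 101 at E8.5 (3.74 ± 1.37, adjusted p = 0.0525).

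Hairpins known from liver and gut endoderm, a tissue outside the neural crest, were among those with the largest changes. Of the 11 in the list 5 were tested and 4 were higher, against 21.0% of all tested hairpins, with a median of 4.38. mir-122, the main microRNA of hepatocytes, stood at 197 and 685 normalized counts at E9.5, against 28.4, 0, 0 and 18.7 at E8.5, a log2 fold change of 6.23 ± 1.25 (adjusted p = 0.00498) that was 5.05 in edgeR. mir-192 stood at 270 and 714 at E9.5, against 47.3, 3.57, 0 and 70.9 at E8.5 (5.29 ± 1.29, adjusted p = 0.00982). For both hairpins each E9.5 library lies above every E8.5 library, and replicate 2 is the higher.

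mir-194-2, encoded next to mir-192 at chr19:6264643-6264728, stood at 136 and 371 at E9.5, against 28.4, 5.002, 19.3 and 29.8 at E8.5 (3.63 ± 0.88, adjusted p = 0.00982). Its copy mir-194-1 shares the mature sequence and was higher too (4.38 ± 1.31, adjusted p = 0.0236), although replicate 1 at 44.0 lies below E8.5 replicate 4 at 52.2. mir-375 of endocrine cells, at 116 and 220 at E9.5 against 185, 81.5, 38.7 and 70.9 at E8.5, did not pass (0.99 ± 0.70, adjusted p = 0.298). The list summed to 772 and 2381 at E9.5, against 303, 92.9, 58.0 and 243 at E8.5, with 5 of 11 members at 0 in every E9.5 library and 4 in every E8.5 library, mir-215 and the mir-216 copies in both. In sorted bulk RNA, fewer cells of a type and less RNA per cell cannot be told apart. Whether RNA of endoderm or liver has a part in these values was not tested.

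**Figure D3:**
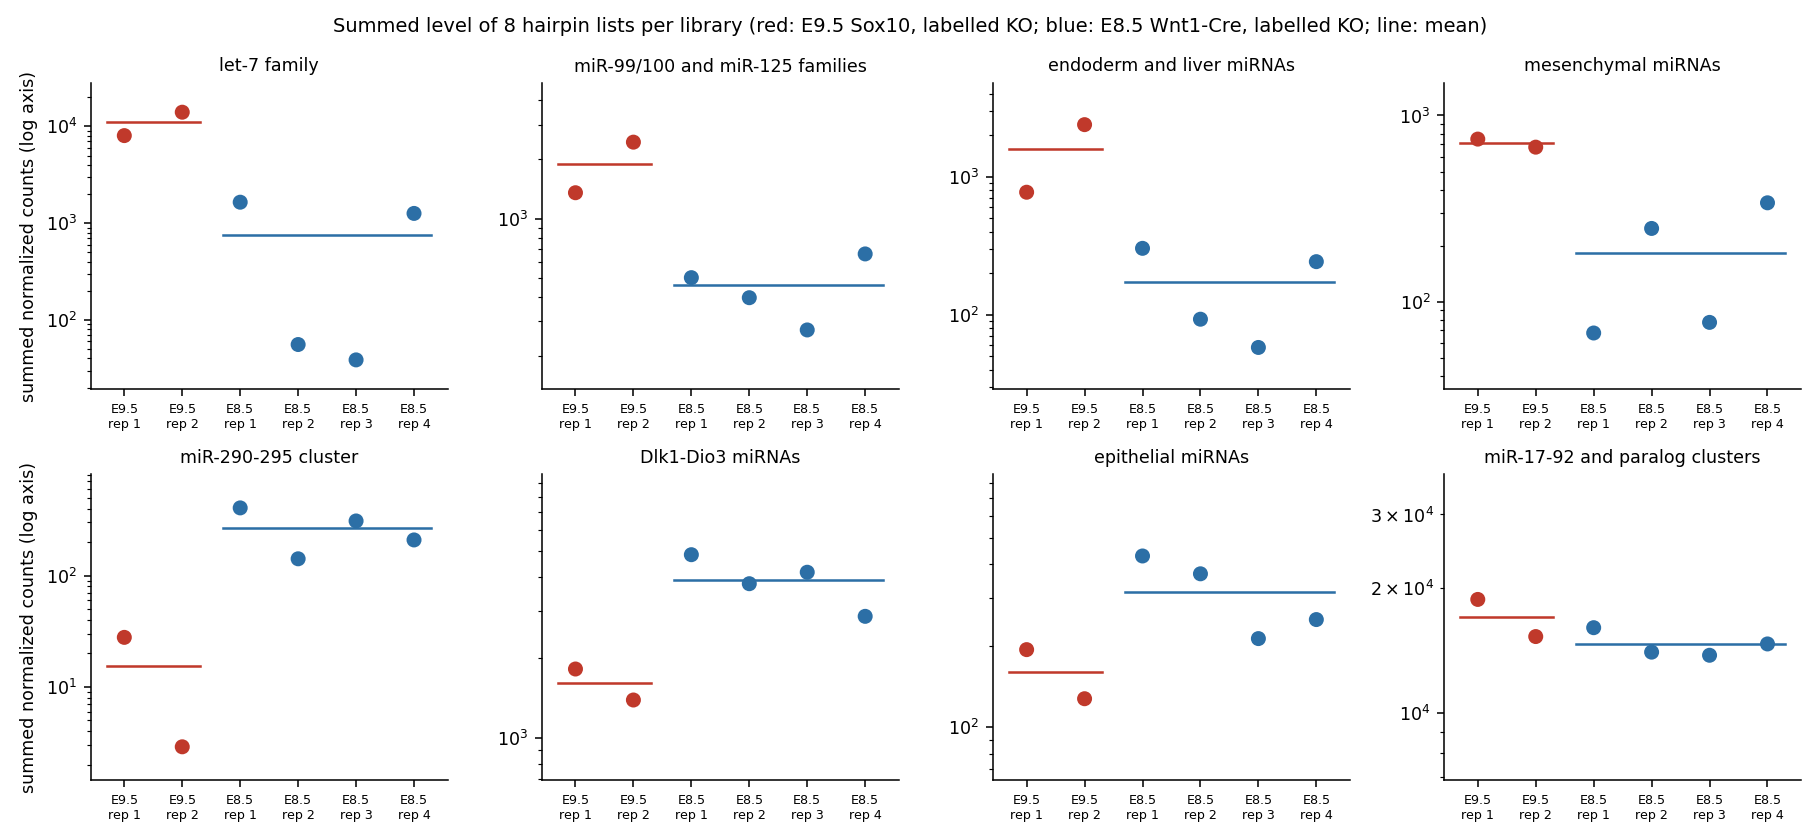
Summed normalized counts (log axis) of 8 hairpin lists in each library, red points for the 2 E9.5 and blue points for the 4 E8.5 libraries, with lines at the group means. let-7 at 8029 and 14010.5 and the endoderm and liver list at 772 and 2381 lie above all E8.5 libraries, while the miR-290-295 and Dlk1-Dio3 lists lie below all of them.

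Of 5 tested mesenchymal hairpins 3 were higher, against 21.0% of all tested hairpins, and 2 did not pass, with a median of 3.59. mir-199a-2 and mir-214 lie in Dnm3os, a transcript opposite to Dnm3, and their products mark mesenchyme, a fate of cranial crest. mir-214, at chr1:162223368-162223477, stood at 57.2 and 23.2 normalized counts at E9.5, against 0, 4.29, 0 and 3.73 at E8.5, a log2 fold change of 4.07 ± 0.94 (adjusted p = 0.00967). mir-199a-2, from the same transcript, stood at 230 and 206 at E9.5, against 7.89, 60.0, 19.3 and 93.3 at E8.5 (2.78 ± 0.89, adjusted p = 0.030). Its copy mir-199a-1 was higher by 3.76 ± 1.32 (adjusted p = 0.0427). Here E8.5 replicate 1 is lower than replicate 2, unlike in the let-7 family.

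mir-199b stood at 175 and 174 at E9.5, below both mir-199a copies, against 9.46, 48.6, 0 and 85.8 at E8.5, and missed the threshold (3.59 ± 1.33, adjusted p = 0.0534). mir-140 of cartilage did not pass, at 82.2 and 72.5 at E9.5 against 39.4, 80.8, 58.0 and 82.1 at E8.5 (0.30 ± 0.50, adjusted p = 0.657). With TMM or library-sum scaling 1 of the 5 was called.

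Of 3 tested vascular and smooth muscle hairpins 2 were higher, against 21.0% of all tested hairpins. mir-143 stood at 277 and 577 normalized counts at E9.5, against 103, 9.29, 0 and 67.2 at E8.5, a log2 fold change of 4.61 ± 1.36 (adjusted p = 0.0222). mir-145a, its neighbour in 1 transcript, had 16.1 and 26.1 at E9.5 (20 reads) and no read in any E8.5 library (4.43 ± 0.69, adjusted p = 0.00118). Against a floor of 3 reads over the E8.5 group, it was at least 15.3-fold higher. The list median of 4.43 is 3.93 with mir-145a at that bound. mir-126a, the endothelial member, stood at 83.6 and 203 at E9.5, against 55.2, 107, 77.3 and 26.1 at E8.5, and did not pass (1.13 ± 0.84, adjusted p = 0.322). The list summed to 377 and 806 at E9.5, against 158, 116, 77.3 and 93.3 at E8.5. The part of vascular or smooth muscle cells in it was not tested.

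Blood hairpins were low at both stages. Of 10 blood hairpins 0 were tested, and their sum was 27.9 and 20.3 normalized counts at E9.5, against 14.2, 6.43, 0 and 7.46 at E8.5. mir-451a of red cells and mir-142a of white cells were at 0 in all 6 libraries. The 10 muscle hairpins summed to 57.2 and 63.8 at E9.5, against 91.5, 5.002, 38.7 and 14.9 at E8.5. Only mir-1a-1 was tested, at 49.9 and 55.1 at E9.5 (34 and 19 reads), against 63.1, 4.29, 0 and 7.46 at E8.5, and it did not pass (2.87 ± 1.39, adjusted p = 0.131). E8.5 replicate 1, with 40 reads of it, lies above both E9.5 libraries.

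Of 11 tested neural hairpins 2 were higher and 1 was lower, shares near those of all hairpins tested (21.0% and 9.68%). mir-128-2, from an intron of Arpp21, stood at 99.8 and 287 normalized counts at E9.5, against 69.4, 17.9, 0 and 22.4 at E8.5 (3.68 ± 1.22, adjusted p = 0.0346). Its copy mir-128-1 was higher by 2.10 ± 0.67 (adjusted p = 0.0297), and neither copy was called with TMM or library-sum scaling. mir-219a-1, whose product is known from oligodendrocytes, fell to 2.93 and 2.90 at E9.5, against 26.8, 32.9, 58.0 and 56.0 at E8.5 (-3.43 ± 0.81, adjusted p = 0.00967). The E8.5 libraries all lie above both E9.5 libraries for it. Its copy mir-219a-2 did not fall with it. That copy stood at 20.5 and 49.3 at E9.5, against 3.15, 12.1, 58.0 and 29.8 at E8.5, where the groups overlap, and was not called.

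Neuronal mir-124-1 did not pass, at 95.4 and 226 at E9.5 against 75.7, 53.6, 58.0 and 209 at E8.5 (0.80 ± 0.71, adjusted p = 0.423). E8.5 replicate 4 reached the E9.5 range for it. Hox-cluster hairpins, which follow position along the body axis, had 2 tested, 0 called by limma or edgeR and 1 at an unadjusted p under 0.05. mir-10a stood at 69.0 and 43.5 at E9.5, against 25.2, 2.86, 0 and 41.0 at E8.5 (2.79 ± 1.29, adjusted p = 0.115).

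Several broadly expressed hairpins were higher by smaller amounts. mir-21a stood at 779 and 1474 normalized counts at E9.5, against 383, 304, 155 and 451 at E8.5 (1.83 ± 0.56, adjusted p = 0.024). mir-23b stood at 167 and 290 at E9.5, against 91.5, 28.6, 38.7 and 48.5 at E8.5 (2.20 ± 0.53, adjusted p = 0.00979), and it was also called with both other scalings. Of 5 tested miR-30 hairpins 2 were higher, against 21.0% of all tested hairpins. They were mir-30c-1, by 1.73 ± 0.47 (adjusted p = 0.0149), and mir-30a, by 1.07 ± 0.35 (adjusted p = 0.0346). mir-182, of the sensory miR-183 cluster, stood at 1376 and 1711 at E9.5, against 858, 815, 541 and 373 at E8.5 (1.32 ± 0.45, adjusted p = 0.0376), and was lost in edgeR (adjusted p = 0.0578).

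The hairpin with the most reads among those called was mir-6236. It stood at 6630 and 8923 normalized counts at E9.5, against 1319, 217, 638 and 832 at E8.5, a log2 fold change of 3.62 ± 0.64 (adjusted p = 0.00299). It held 11.4% and 12.7% of the E9.5 libraries, against 3.26%, 0.660%, 1.93% and 2.29% of the E8.5 libraries. Its call held under all 27 alternatives run. Outside the lists 19 hairpins were higher, and among them were other late-numbered entries, named here after their values were seen: mir-6240 at 456.3 and 621 at E9.5 against 192, 30.0, 96.7 and 85.8 at E8.5, and mir-5112 at 52.8 and 110.2 against 0, 0.715, 0 and 7.46. mir-5112 rests on 3 E8.5 reads, which give a pooled ratio of 56.6 with an exact interval of 18.6 to 280.5 that covers counting error only.

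Of the hairpins with the miR-302 seed, mir-302b and mir-302d were higher at E9.5, mir-294 of the miR-290-295 cluster was lower and mir-295 did not pass. mir-302b stood at 101 and 34.8 normalized counts at E9.5, against 11.0, 2.14, 19.3 and 0 at E8.5 (3.52 ± 0.97, adjusted p = 0.0164). mir-302d stood at 35.2 and 11.6 at E9.5 and had no read in any E8.5 library (4.42 ± 0.70, adjusted p = 0.00118), at least 21.4-fold higher against a floor of 3 reads over the E8.5 group. Without the shallow replicate 3 the adjusted p was 0.00535 for mir-302b and 0.00121 for mir-302d. mir-302a, at 5.87 and 29.0 at E9.5, and mir-302c, at 5.87 and 0, had no E8.5 read and were below the minimum for the test.

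mir-367, which ends the cluster at chr3:127545733-127545807, went the other way, with no read in either E9.5 library, against 50.5, 6.43, 0 and 18.7 at E8.5. The WT libraries held 1.76 and 1.87 at E9.5 and 14.7, 8.81 and 16.98 at E8.5, so the E8.5 KO libraries lie on both sides of the WT range for it. At E7.5 the libraries labelled KO held 57.2 and 93.2, and the WT ones 41.1 and 98.8. Unlike miR-302a to d, mir-367 was thus not depleted in the E7.5 libraries labelled KO. In the E9.5 to E8.5 comparison mir-367 missed the threshold (-3.22 ± 1.19, adjusted p = 0.0531). It passed without the shallow replicate 3 (adjusted p = 0.00452) and in edgeR (adjusted p = 0.00905). Since mir-367 entered the test only through the E8.5 libraries, where it is high, these values are weak support for a fall.

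The tested hairpins of the miR-290-295 cluster, the main embryonic stem cell cluster of the mouse, lie within chr7:3219189-3220841, opposite to Nlrp12. Of the 9 hairpins 4 were tested and 3 were lower, against 9.68% of all tested hairpins. All 3 were tested only through the E8.5 libraries, where they are high. The 4 had a median of -4.55 (-3.81 with mir-294 at its bound) against 0.64 over all hairpins. The cluster summed to 27.9 and 2.90 normalized counts at E9.5 (20 reads), against 405.3, 141, 309 and 209 at E8.5 (527 reads). Both E9.5 libraries lie below every E8.5 library.

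mir-292a fell to 4.40 and 0 normalized counts at E9.5, against 106, 46.4, 193 and 67.2 at E8.5 (-5.28 ± 0.71, adjusted p = 8.25e-04). It rests on 3 E9.5 reads, which give a pooled level 23.3-fold lower, with an exact interval of 7.82 to 114-fold. mir-293 fell to 7.34 and 0 at E9.5, against 180, 57.9, 77.3 and 97.0 at E8.5 (-5.04 ± 0.72, adjusted p = 8.25e-04). These 2 calls held under all 27 alternatives, including without E9.5 replicate 2 (adjusted p = 0.0126 each).

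mir-294 had no read at E9.5, against 28.4, 14.3, 19.3 and 7.46 at E8.5 (-4.06 ± 0.76, adjusted p = 0.00308), at least 5.96-fold lower against a floor of 3 reads over the E9.5 group. mir-295, at 10.3 and 2.90 at E9.5 against 41.0, 10.004, 19.3 and 26.1 at E8.5, missed the threshold (-1.76 ± 0.64, adjusted p = 0.0508). The 4 tested hairpins with the seed AAGUGCU thus did not move together.

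**Figure D4:**
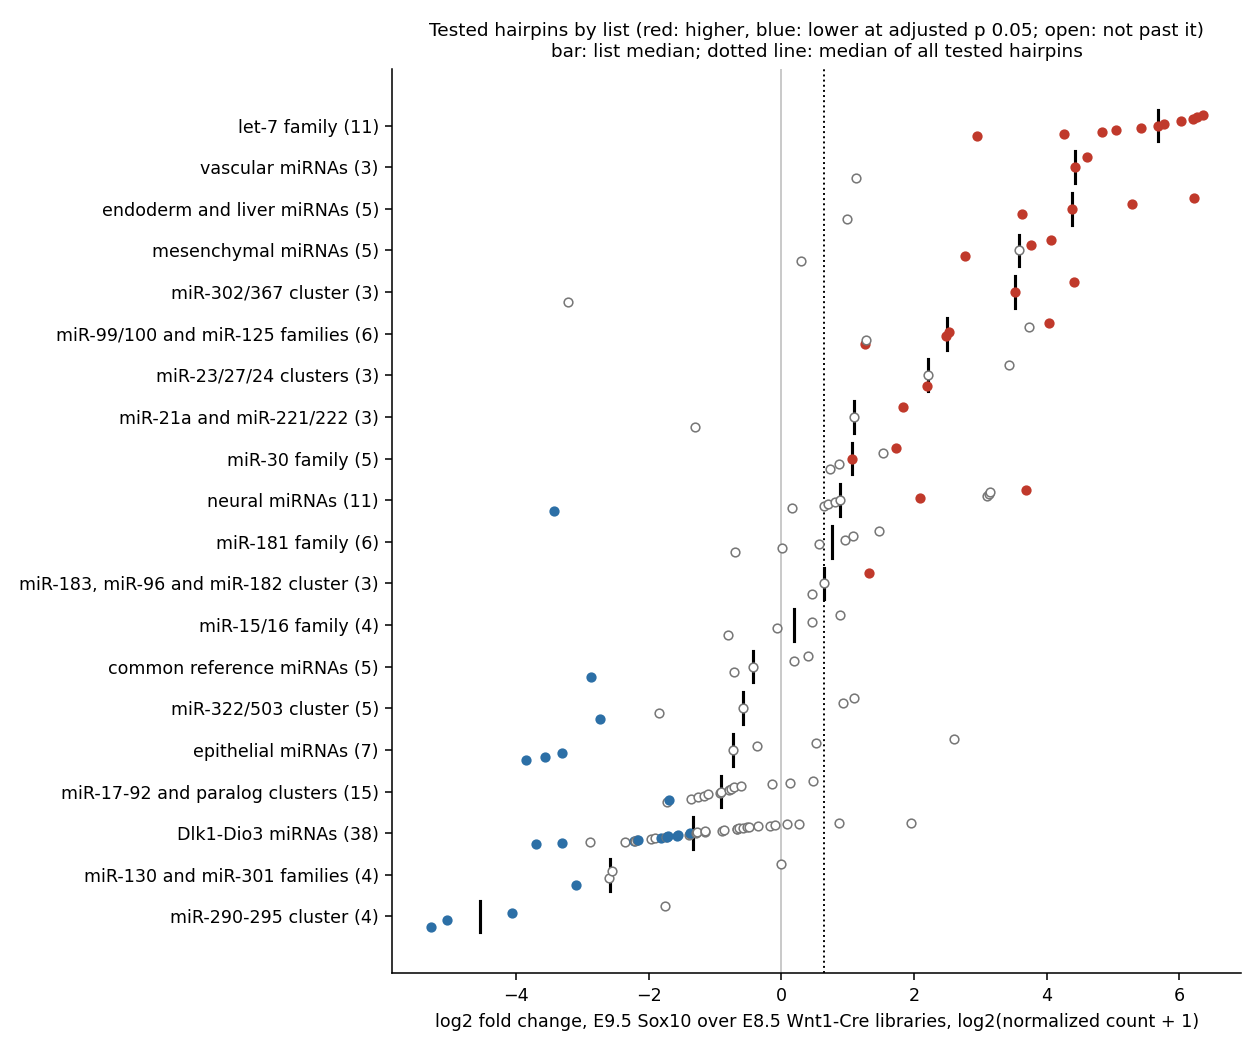
Log2 fold change of each tested hairpin (x axis, E9.5 over E8.5) in the lists with at least 3 tested members (y axis, number tested in brackets), filled red for higher, filled blue for lower and open for hairpins not past an adjusted p of 0.05, with a bar at each list's median and a dotted line at the median of all 248 hairpins, 0.64. let-7 lies at the top with a median of 5.68 and miR-290-295 at the bottom with -4.55.

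The imprinted Dlk1-Dio3 region on chromosome 12, expressed from the maternal allele and rich in neural and placental microRNAs, gave the most lower calls of any list. Of 58 hairpins 38 were tested and 34 were below 0, with a median of -1.33. The minimum was passed through the E8.5 libraries alone by 9 of the 38, and through the E9.5 libraries alone by 1. It favours a value below 0 in those 9, so they are weak support for a fall. Of these 38, 10 were lower, against 9.68% of all tested hairpins, and 0 higher. The list summed to 1812 and 1387 normalized counts at E9.5, against 4859, 3783, 4176 and 2854 at E8.5. As a share of the library this was 3.11% and 1.98%, against 12.03%, 11.5%, 12.7% and 7.84%. The groups do not overlap, and the code 128 libraries do not stand apart here.

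mir-411, at chr12:109710175-109710256, fell to 86.6 and 84.1 at E9.5, against 295, 349, 522 and 403 at E8.5 (-2.16 ± 0.54, adjusted p = 0.0112). mir-379, at chr12:109709060-109709125, fell to 83.6 and 49.3, against 382, 166, 213 and 157 at E8.5 (-1.72 ± 0.45, adjusted p = 0.0145). mir-543 fell to 69.0 and 69.6, against 226, 283, 425 and 138 at E8.5 (-1.82 ± 0.43, adjusted p = 0.00967). For each of them the highest E9.5 library is below the lowest E8.5 library.

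The others that fell were mir-323, mir-494, mir-382, mir-409, mir-487b, mir-758 and mir-341, by 1.37 to 3.70 log2 units. The hairpin mir-541, at 349 and 299 at E9.5 against 595, 778, 464 and 325 at E8.5, did not pass (-0.67 ± 0.52, adjusted p = 0.344). Over all 248 tested hairpins 36 were lower without the shallow replicate 3, 39 with TMM scaling and 50 with library-sum scaling. Without the shallow replicate 3 the count of lower members was 16, with TMM scaling 13, with library-sum scaling 15, and without E9.5 replicate 2 it was 0.

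Epithelial hairpins had 3 of 7 lower, against 9.68% of all tested hairpins, and a median of -0.73. The miR-200 family and miR-205 are kept high in epithelium and are known to oppose the factors that drive cells out of it. mir-200b fell to 80.7 and 0 normalized counts at E9.5, against 226, 182.2, 77.3 and 89.5 at E8.5 (-3.86 ± 1.17, adjusted p = 0.024). The groups overlap, since E9.5 replicate 1 lies above E8.5 replicate 3, and edgeR did not call it (-1.82, adjusted p = 0.106). The change rests on the 0 in E9.5 replicate 2: it was -0.68 without that library (adjusted p = 0.575) and -7.03 without E9.5 replicate 1.

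mir-200a, from the same transcript at chr4:156054896-156054985, fell to 2.93 and 0, against 18.9, 30.7, 19.3 and 22.4 at E8.5 (-3.56 ± 0.76, adjusted p = 0.00695). mir-205 fell to 14.7 and 0, against 30.0, 49.3, 38.7 and 37.3 at E8.5 (-3.31 ± 1.03, adjusted p = 0.0266), a change that was -1.32 without E9.5 replicate 2 (adjusted p = 0.481). mir-200c did not pass, at 57.2 and 31.9 at E9.5 against 78.9, 77.9, 77.3 and 56.0 at E8.5 (-0.73 ± 0.49, adjusted p = 0.267), and mir-141 and mir-203 lay above 0. edgeR called 1 of the 7.

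Among other lower hairpins, mir-135b, in an intron of Lemd1, fell to 27.9 and 34.8 normalized counts at E9.5, against 144, 104, 213 and 190 at E8.5 (-2.29 ± 0.53, adjusted p = 0.00967). Of 4 tested hairpins of the miR-130 and miR-301 families 1 was lower, against 9.68% of all tested hairpins. This was mir-130a, which fell to 0 and 2.90, against 15.8, 14.3, 19.3 and 14.9 at E8.5 (-3.10 ± 0.80, adjusted p = 0.0137). All 4 lay below 0, but mir-130b, the most abundant of them, was almost unchanged (-0.008 ± 0.47, adjusted p = 0.993). The minimum was passed through the E8.5 libraries alone by 2 of the 4, mir-130a included, and it favours a value below 0 in those. mir-3081 had no E9.5 read, against 3.15, 10.7, 19.3 and 3.73 at E8.5, and was not called by edgeR (adjusted p = 0.0885).

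The proliferation-linked miR-17-92 cluster and its paralogs had 13 of 15 hairpins below 0 and a median of -0.91. Only mir-106b, in an intron of Mcm7, passed the threshold, against 9.68% of all tested hairpins that were lower. It fell to 46.9 and 43.5 at E9.5, against 67.8, 181, 135 and 295 at E8.5 (-1.70 ± 0.58, adjusted p = 0.0382). mir-20a stood at 117 and 102 at E9.5, against 121, 644, 580 and 381 at E8.5, and missed it (-1.72 ± 0.66, adjusted p = 0.0606). With TMM scaling 6 of the 15 were lower, against 39 of all 248 tested hairpins. With library-sum scaling 9 were lower, against 50 of all 248. The summed level of the 15 did not fall, at 18733 and 15249 at E9.5, against 16018, 13988, 13747 and 14637 at E8.5. Most of that sum is mir-92a-1, a member given next.

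The most abundant hairpin of each of the 6 libraries, mir-92a-1, did not pass the test. It stood at 13757 and 11252 normalized counts at E9.5, against 11231, 8002, 7792 and 9264 at E8.5, a log2 fold change of 0.47 ± 0.59 (adjusted p = 0.549). mir-92a-2, the next in each E8.5 library and below mir-6236 at E9.5, had 0.13 ± 0.36 (adjusted p = 0.786). mir-92b, another hairpin of that seed, stood at 359 and 171 at E9.5, against 1069, 860.4, 1237 and 1048 at E8.5, and narrowly missed the threshold (-2.07 ± 0.78, adjusted p = 0.0548). It passed in edgeR (adjusted p = 0.0375). Of 5 hairpins often used for scaling 1 was lower, against 9.68% of all tested hairpins, and 4 did not pass. The lower one, mir-107, stood at 8.80 and 0 at E9.5, against 6.31, 33.6, 38.7 and 26.1 at E8.5 (-2.87 ± 0.99, adjusted p = 0.0391). Its groups overlap, edgeR did not call it (adjusted p = 0.106), and its change was -1.22 without E9.5 replicate 2. Among the 4 was mir-191, at 109 and 186 at E9.5 against 132, 109, 135 and 119 at E8.5 (0.20 ± 0.38, adjusted p = 0.709).

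Other families had no called member. The miR-181 family had 0 of 6 called with limma and with edgeR, 0 at an unadjusted p under 0.05, and a median of 0.76, which was -0.07 with library-sum scaling. The miR-15/16 family had 0 of 4 on the same 3 counts and a median of 0.20, which was -0.38 with TMM scaling and -0.65 with library-sum scaling.

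The E8.5 libraries differed among themselves, and for many of these hairpins the split followed the label codes. Of the 52 higher hairpins 32 had both code 128 libraries below both other E8.5 libraries, against 89 of all 248 tested, which include those 32. Of the 24 lower hairpins 1 did. The reverse split, with both code 128 libraries above both others, was seen in 5 of the 24 lower hairpins, against 26 of all 248 tested. With the code 128 libraries left out, 35 hairpins were higher and 29 lower, and with only those 2 as the E8.5 group 71 were higher and 25 lower. E8.5 replicate 3 also had the greatest mean squared deviation from its group, 3.88 against 0.785 to 1.48 for the other 3 libraries. The part of the code in each difference was not tested.

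The WT libraries of the same 2 sorts, 2 at E9.5 and 3 at E8.5, gave the stage change with intact miR-302 and share no library with the KO comparison. On the same 248 hairpins, 6 were called in WT (2.42%), 3 higher and 3 lower. Those higher were mir-214, mir-199a-2 and mir-99b, and those lower were mir-302d, mir-200c and mir-135b. Of these, 5 were also called in KO, all but mir-200c, and mir-302d had the opposite sign there.

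Of the 76 hairpins called in KO, 69 had the same sign in WT, against 170 of all 248. The 52 higher hairpins had a median of 3.80 in KO and 1.09 in WT, and the 24 lower ones -2.96 in KO and -1.21 in WT. Since they were picked on the KO values, nothing is read from the gap. Across the 248 hairpins, which are not independent, Pearson's r between the 2 stage changes was 0.54 and Spearman's rho 0.58. By list, the median of the mesenchymal hairpins was 3.59 in KO and 4.30 in WT, that of the Dlk1-Dio3 hairpins was -1.33 in KO and -1.02 in WT, and that of let-7 was 5.68 in KO and 1.29 in WT.

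**Figure D5:**
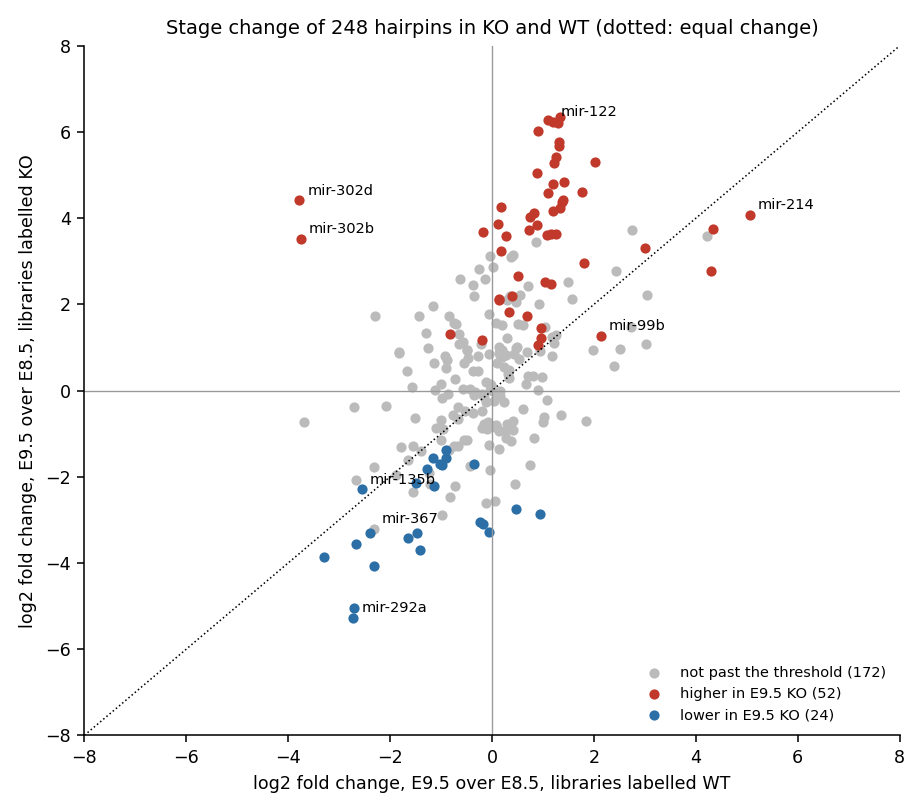
Log2 fold change from E8.5 to E9.5 of the 248 hairpins in libraries labelled KO (y axis) against that in libraries labelled WT (x axis), red for the 52 higher, blue for the 24 lower and grey for the 172 not past the threshold in KO, with a dotted line of equal change. mir-302d and mir-302b stand alone at the upper left, at 4.42 and 3.52 in KO and -3.78 and -3.75 in WT.

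The difference itself, the KO stage change minus the WT stage change, passed for 2 of 248 hairpins (0.806%), both miR-302 hairpins. mir-302d differed by 8.19 ± 1.01 log2 units (adjusted p = 3.17e-04) and mir-302b by 7.28 ± 1.41 (adjusted p = 0.0181). At E9.5 and E8.5 in WT, mir-302d stood at 70.8 and 121 against 1364, 1044 and 1478. With almost no miR-302 in the E8.5 KO libraries, such a fall could not appear in KO, so a difference was favoured in advance. mir-302d also passed the minimum through the E9.5 KO libraries alone. The next smallest adjusted p was that of mir-200c, 0.0844, with a difference of 2.96 ± 0.71. For mir-200c the WT libraries had 3.23 and 4.68 at E9.5 against 66.2, 45.7 and 80.8 at E8.5.

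let-7b changed by 5.01 ± 2.34 log2 units more in KO than in WT, which did not pass (adjusted p = 0.363), and mir-122 by 5.03 ± 1.81 (adjusted p = 0.358). In WT, let-7 hairpins summed to 831 and 2030.0 normalized counts at E9.5, against 516, 552 and 595 at E8.5. At E9.5 both KO libraries thus hold more let-7 than either WT library, while at E8.5 the KO libraries lie on both sides of the WT range. For mir-135b, called in both genotypes, the difference was 0.25 ± 0.77 (adjusted p = 0.887).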

How the data were processed

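Reads were checked with FastQC 0.11.5 and aligned with STAR 2.7.0f to mm10, per the submitters' processing notes. In the sources used here the counting and scaling tools are not given. The deposited signal is the authors' normalized count per hairpin, a read count divided by 1 factor per library. All 6086 values above 0 (100%, within 0.001) were whole multiples of 1 read, so reads were recovered. All 2108 mature-arm entries of the table were 0, and 1 unmatched per-library column was not used. Replicates differed beyond sampling noise (a chi-square of 2.07 to 26.0 per degree of freedom) and none were merged.

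The two-sided test was limma 3.58.1 in R 4.3.3, as lmFit and eBayes with a trend. It used log2(normalized count + 1) of all 15 libraries with 6 group means, Benjamini-Hochberg adjusted over the 248 hairpins. It was tested on simulated data. Alternatives were edgeR 4.0.16 and DESeq2 1.42.0 on the recovered reads, TMM and library-sum scaling, other filters, a pseudocount of 10, only the groups compared, label codes, a replicate block and each library left out. Intervals are exact 95% intervals and, like floors, cover counting error only. The members and lists were chosen with earlier results of these data known. The text names the 10 highest and 10 lowest called hairpins without overlap and with a mean of at least 100 in the higher group, up to 4 of the most abundant of each list, each miR-302/367 hairpin, the 10 most abundant of each group and hairpins whose stage change differed between genotypes, and summarises some of these by count; other names were chosen after their values were seen.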

Additional observations from a re-analysis of the deposited data

Results flagged for a closer look

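Of 94 named hairpins, 4 had an E8.5 library far from the other 3, and chance flags about 1 in 20 groups. E8.5 replicate 4 stood apart for mir-124-3, at 216.4 normalized counts with 58.0 to 77.3 in the others, for mir-124-1, at 208.9 with 53.6 to 75.7, and for mir-200c, where it was low at 56.0 with 77.3 to 78.9. E8.5 replicate 1 stood apart for mir-1a-1, at 63.1 with 0 to 7.46 in the others. None of the 4 hairpins was called.

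The stage change differed between KO and WT for mir-302d, by 8.19 log2 units, and for mir-302b, by 7.28, both with the interaction contrast in limma. Both are miR-302 hairpins, with 127 reads over the 4 miR-302 hairpins in the E9.5 libraries and 11 in the E8.5 libraries labelled KO. From so low an E8.5 level the fall seen in WT could not appear in KO.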

How the results depend on the processing

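Without a filter 34 hairpins were higher and 12 lower (46 in all), and with only the 6 libraries 8 and 5 (13 in all). TMM scaling gave 39 lower, and library-sum scaling 33 higher and 50 lower. Leaving out 1 library at a time gave 4 to 62 higher, 4 to 36 lower and 8 to 88 in all, the low ends without E9.5 replicate 2; without E9.5 replicate 1, 32 were higher. No called hairpin changed sign under any alternative.

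The difference between genotypes was called for 1 hairpin with library-sum scaling, 9 without a filter, 0 with a minimum of 50 (which leaves out both miR-302 hairpins; 14 at an unadjusted p under 0.05), 4 with the filter over all 15 libraries and 31 with only the code 128 libraries as E8.5 KO. Leaving out 1 library gave 1 to 2; it was 1 without E8.5 WT replicate 1 or 3 or either E9.5 WT library.

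The replicate numbers do not pair the samples (correlations of same-numbered deviations -0.04 and -0.33). With a replicate block 50 hairpins were higher, 18 lower and 2 differed between genotypes.

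Depth limits the low hairpins: at 1706 reads, E8.5 replicate 3 cannot show values under 19.3 normalized counts. With 2 E9.5 libraries, the spread at that stage is estimated together with that of the other groups.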
